A study of Mus musculus with 12 samples.

Results

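Messenger RNA of 9 genes of ovarian steroid signalling was described in clones of the mouse Fallopian tube (oviduct). The genes were listed by symbol, with no cutoff on measured values, and all 9 were found among the 35509 genes of the table. They are the nuclear oestrogen receptors Esr1 and Esr2, the progesterone receptor Pgr, the oestrogen target Greb1, the membrane progesterone receptor components Pgrmc1 and Pgrmc2, and the nuclear receptor coactivators Ncoa1, Ncoa2 and Ncoa3. All libraries came from untreated MADM wild-type mice aged 4 weeks, with the MADM alleles in the RG;GR arrangement on a mixed background. MADM (mosaic analysis with double markers) switches on colour in rare dividing cells, so that the offspring of a marked cell can be recognised as a clone and its size judged. From each of 6 mice, a pool of 200 large-clone cells and another of 200 small-clone cells were cut from the distal tube by laser microdissection, which gave 6 libraries of each kind. The size that divides large from small clones, the number of clones in a pool and the Cre driver are not given in the sources used here.

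Oestrogen enters the cell and binds ESR1 or ESR2, which then attach to DNA and switch genes on or off. PGR is the nuclear receptor for progesterone, and its own gene is a known oestrogen target, as is Greb1, whose product is a cofactor of ESR1. The p160 coactivators made by Ncoa1, Ncoa2 and Ncoa3 bind hormone-loaded receptors and bring in histone acetyltransferases. PGRMC1 and PGRMC2 are haem-binding membrane proteins linked to rapid progesterone responses and are unrelated to PGR in structure. In the oviduct these hormones govern secretion, ciliation and transport over the cycle.

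Regulatory sequence of the genes was read first, because these receptors act through short DNA words. RefSeq windows on GRCm38.p6, from 250 bases before to 50 after a transcription start, were found for 7 of the 9 genes, in 9 windows, and none was found for Ncoa2 and Ncoa3. Both strands were searched. No window held the palindromic oestrogen response element, which is GGTCA followed after 3 unspecified bases by TGACC, and 23 of 32851 windows of all genes held it. No window held the progesterone-type element, which is GNACA followed after 3 bases by TGTNC, and 0.475% of all windows held it. The single arm GGTCA, a part of the oestrogen palindrome, occurred in 4 of the 9 windows and in 40.5% of all windows, so it does not set these genes apart. The 4 windows belong to Esr1, Esr2 and Greb1, and the second window of Esr1 held no arm. The 250 upstream bases of the Esr2 and Greb1 windows are shown because they hold this arm, and those of Pgr because it is the classical target in the set and holds none. Capitals mark GGTCA, or TGACC where it lies on the opposite strand, and each line runs 5′ to 3′ in the direction of the gene.

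Esr2, chr12:76177260-76177509, minus strand: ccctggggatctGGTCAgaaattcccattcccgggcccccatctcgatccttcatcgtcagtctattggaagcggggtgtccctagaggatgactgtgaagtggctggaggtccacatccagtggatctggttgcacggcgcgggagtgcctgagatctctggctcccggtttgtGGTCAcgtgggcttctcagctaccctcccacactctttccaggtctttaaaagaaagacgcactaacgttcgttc
Greb1, chr12:16757240-16757489, minus strand: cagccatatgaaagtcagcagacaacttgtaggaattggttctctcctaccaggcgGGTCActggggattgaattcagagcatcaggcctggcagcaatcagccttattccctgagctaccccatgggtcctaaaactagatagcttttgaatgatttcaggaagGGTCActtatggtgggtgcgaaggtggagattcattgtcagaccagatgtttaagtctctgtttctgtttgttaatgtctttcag
Greb1, chr12:16800887-16801136, minus strand: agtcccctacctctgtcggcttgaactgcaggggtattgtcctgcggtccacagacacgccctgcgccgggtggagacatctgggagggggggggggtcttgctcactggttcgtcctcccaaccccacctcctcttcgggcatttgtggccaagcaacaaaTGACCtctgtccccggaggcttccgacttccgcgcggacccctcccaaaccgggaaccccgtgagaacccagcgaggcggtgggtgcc
Pgr, chr9:8899583-8899832, plus strand: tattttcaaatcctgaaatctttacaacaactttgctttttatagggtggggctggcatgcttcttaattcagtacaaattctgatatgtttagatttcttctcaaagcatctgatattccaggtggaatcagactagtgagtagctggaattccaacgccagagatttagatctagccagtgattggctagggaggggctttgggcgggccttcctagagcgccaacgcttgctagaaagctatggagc

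The arms of Esr2 began 238 and 75 bases before the start. Those of the first Greb1 window began 194 and 85 bases before it, and that of the second 88 bases before it. In Esr1 the arm began at base 16 of the transcript, within chr10:4611990-4612020 on the plus strand:

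Esr1: ctaatttcatGGTCAtaacagcctc

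These are matches of letters and not measured binding sites, and distal elements lie outside such windows.

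Depth was similar in both groups, and a difference between libraries crossed them. A library held 3057979 to 4227129 expected counts in total. Receptor genes for smell, pheromones and taste accounted for 7.87% to 11.03% of all counts in 5 libraries, the large clones of mice 1, 2 and 6 together with the small clones of mice 3 and 6. In the remaining 7 libraries this chemoreceptor share was 0.843% to 4.17%. Ribosomal protein genes made up 1.71% to 8.54% of counts in the 5 and 14.2% to 19.2% in the 7. All 10 markers of secretory epithelium were detected in both groups and summed to 907 to 9298 CPM per large-clone library and 1426 to 11867 CPM per small-clone library. Here CPM is the count of a gene at a common library size. The 10 ciliated markers, all detected in both groups, summed to 129 to 3194 CPM and 261 to 4597 CPM. The other marker lists, in the same order of groups, summed to 17.6 to 347 and 32.2 to 173 CPM for fibroblast (6 of 6 genes detected), 4.97 to 76.5 and 1.93 to 223 CPM for smooth muscle (6 of 6), and 0.296 to 315 and 2.22 to 96.4 CPM for immune cells (6 of 6). Endothelial markers summed to 30.6 to 294 and 42.0 to 131 CPM, with Tek at 0 in all 6 large-clone libraries, and red blood cell markers (5 of 5) to 224 to 3946 and 34.002 to 1831 CPM. Detected here means a count in any library of the group. Genes with counts in all 6 libraries of large and of small clones were fewer. They numbered 8 and 9 for secretory, 9 and 9 for ciliated and 5 and 3 for fibroblast markers. For smooth muscle they numbered 3 and 0, for immune cells 0 and 1, and for endothelial and red blood cell markers 3 and 3 each. Some, but not all, genes of steroid synthesis were highest in the large clones of mouse 4. There Cyp11a1, the cholesterol side-chain cleavage enzyme, had 2520 CPM against 4.30 to 70.6 CPM elsewhere. Cyp17a1 had 0 CPM in that library and 15.5 CPM in the small clones of mouse 5. Cyp19a1 had 3.89 CPM in that library, 25.3 CPM in the small clones of mouse 3 and 21.7 CPM in the large clones of mouse 1. Hsd3b1 makes progesterone from pregnenolone and was chosen here after its values were seen. It had 654 CPM in the large clones of mouse 4, 55.7 CPM in the large clones of mouse 3, 0.331 CPM in the small clones of mouse 4 and 0 elsewhere. The part of these differences in the results was not tested beyond the values given. In pooled cells, fewer cells of a type and less RNA per cell cannot be told apart.

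Esr1, Pgrmc1 and Ncoa2 had the highest levels per transcript length, and Esr2 and Pgr the lowest. Levels between genes were compared as CPM per kb of the longest protein-coding transcript in GENCODE M21. The median over 12 libraries was 9.65 CPM per kb for Esr1, 8.94 for Pgrmc1 and 8.32 for Ncoa2. It was 2.02 for Greb1, 2.00 for Pgrmc2, 1.55 for Ncoa1 and 1.31 for Ncoa3, and it was 0.822 for Esr2 and 0.306 for Pgr. The ranges of all neighbours in this order overlapped. Esr1 exceeded Pgrmc1 in 8 of 12 libraries and Pgrmc1 exceeded Ncoa2 in 5 of 12, while Ncoa2 exceeded Greb1 in 12 of 12. Further down, each gene exceeded the next in 5 to 8 of 12 libraries. Esr1 stood above Esr2 in 11 of 12 libraries and above Pgr in 12 of 12. With the mean length of coding transcripts in place of the longest, Esr1 kept the first place and Esr2 and Pgr the last places, and Ncoa1 moved from the sixth to the fourth place. Where reads fall along a transcript was not analysed here.

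**Figure D1:**
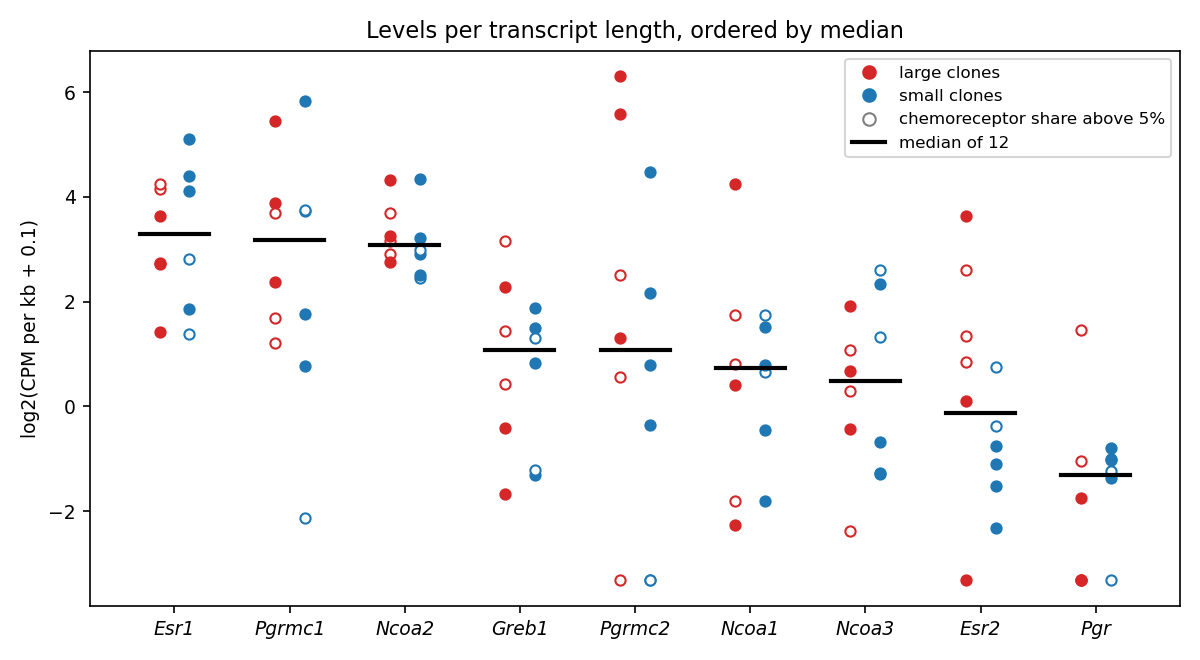
Level of each gene per transcript length, log2(CPM per kb + 0.1), in 6 large-clone (red) and 6 small-clone (blue) libraries, with open points for the 5 libraries with the higher chemoreceptor share and a bar at the median of 12. Esr1, Pgrmc1 and Ncoa2 have medians of 9.65, 8.94 and 8.32 CPM per kb, Pgr is lowest at 0.306, and the lowest points of Pgrmc2, Esr2 and Pgr are libraries at 0.

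None of the 9 genes passed the test between clone sizes. Counts sufficed to test 8 of them, and Pgr was too low. Across 10848 genes, edgeR's quasi-likelihood test with Benjamini-Hochberg adjustment passed 0% at 0.05 and therefore 0 of the 8, whose adjusted p was 0.9998 each. DESeq2 passed 5 genes in all and 0 of the 8. With an unadjusted p under 0.05 there was 1 of the 8, Esr2, against 2.54% of all tested genes (1.44% higher and 1.10% lower in large clones). The log2 fold change, large minus small, was above 0 for 5 genes and below 0 for 3. Its median was 0.48, beside 0.059 over all tested genes. The ranges of large and small clones overlapped for all 9 genes, and 0.0645% of tested genes had groups apart. Among the 8, Esr2 and Pgrmc2 were at 0 in at least 1 library, as were 30.7% of tested genes.

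Esr1 (ENSMUSG00000019768, chromosome 10, 4561593 to 4955614 in the table's coordinates), the main oestrogen receptor of the female tract, was found in all 12 libraries. In large clones of mice 1 to 6 its level was 112, 41.0, 16.4, 41.9, 78.4 and 120.4 CPM. In small clones of these mice it was 22.5, 109, 43.9, 133, 218 and 15.9 CPM. The large clones were higher in mice 1 and 6 and lower in mice 2, 3, 4 and 5, and the groups overlapped over most of their range. It averaged 68.4 ± 42.1 CPM across large-clone libraries and 90.4 ± 78.4 CPM across small-clone libraries (SD, n = 6), and the log2 fold change was -0.40 (SE 0.71, 95% interval -1.92 to 1.12). Within the 7 libraries with the lower chemoreceptor share it was -1.38 (SE 0.87), and within the other 5 it was 1.501 (SE 0.83). The difference between those sets was not tested.

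Esr2 (ENSMUSG00000021055, chromosome 12, 76167193 to 76224033), which encodes oestrogen receptor beta and carries the GGTCA arms printed above, was low in most libraries. Its p was the smallest of the set in the edgeR fit without covariate or mouse block. In large clones of mice 1 to 6 it had 20.01, 5.72, 41.7, 0, 3.28 and 8.15 CPM. In small clones it had 1.23, 0.340, 5.31, 1.65, 0.844 and 2.25 CPM. Large clones were higher in 5 of 6 mice, as for 12.2% of all tested genes, while 13.5% were lower in at least 5. Mouse 4 was the exception, with 0 counts in its large clones, which allows up to 1.30 CPM. The large clones of mouse 3 alone held 46.1% of the summed CPM. The log2 fold change was 2.73 (SE 1.08, 95% interval 0.41 to 5.04), at an unadjusted p of 0.0240 and an adjusted p of 0.9998 in edgeR. With the mouse as a block, edgeR's unadjusted p was 0.0812 at a log2 fold change of 2.27, and it was 0.0839 without mouse 1 and 0.0548 without mouse 2. Esr2 fell under the filter and was not tested when mouse 3 was left out and within the 7 lower-share libraries, and over the 15 alternatives that tested it the adjusted p was 0.306 to 1. Its expected counts were not whole numbers in 11 of 12 libraries, and the cause of this was not examined. Of its 50-base stretches 0.0587% occurred in GENCODE transcripts of other genes.

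Pgr (ENSMUSG00000031870, chromosome 9, 8899834 to 8968612) was at the edge of detection. It had 153 counts over all 12 libraries, of which 89 came from the large clones of mouse 1, at 18.4 CPM. The other large clones had 0 counts in mice 2, 3 and 4, which allows up to 0.687, 1.20 and 1.30 CPM, and 1.37 and 2.65 CPM in mice 5 and 6. The small clones had 2.77, 2.72, 0, 3.31, 1.97 and 2.25 CPM in mice 1 to 6, where the 0 counts of mouse 3 allow up to 0.724 CPM. Counts were thus present in 5 of 6 small-clone and 3 of 6 large-clone libraries. In edgeR without a filter on low counts the log2 fold change was 0.85 (SE 1.52), at an adjusted p of 0.904.

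Greb1 (ENSMUSG00000036523, chromosome 12, 16720616 to 16850887) was found in all 12 libraries. Large clones of mice 1 to 6 had 21.0, 71.0, 5.21, 1.73, 38.5 and 10.05 CPM. Small clones had 2.46, 13.6, 2.65, 21.8, 28.7 and 19.0 CPM. Large clones were higher in mice 1, 2, 3 and 5, and the groups overlapped. On the log2 scale the fold change was 0.74 (SE 0.93, 95% interval -1.25 to 2.73), and without mouse 2, whose large clones had the highest level, it was -0.0016. Of the 50-base stretches of Greb1 transcripts, 5.73% also occurred in transcripts of 55 other genes. Its expected counts were not whole in 9 libraries, and 50.3% of all values above 0 were not whole. Whether shared stretches affect the reads of Greb1 was not tested.

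**Figure D2:**
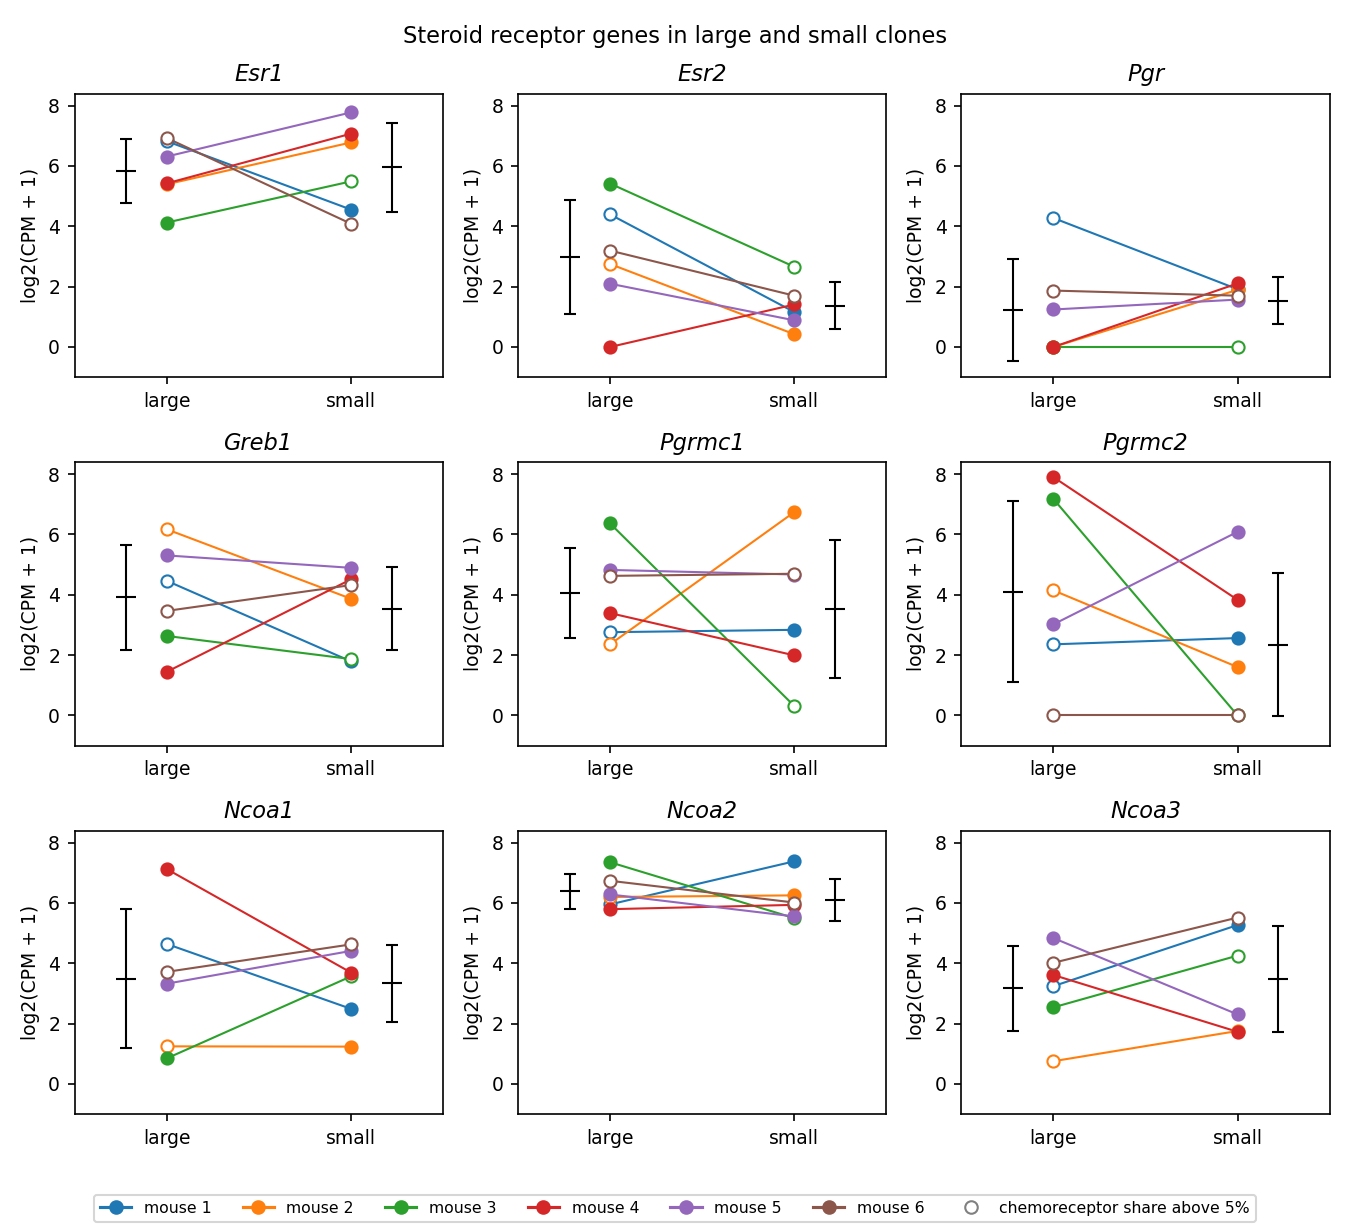
Level of each gene as log2(CPM + 1) in large and small clones, with a line joining the libraries of a mouse and open points for the 5 libraries with the higher chemoreceptor share. Bars beside the points give the mean ± SD of 6 libraries on this scale. Esr2 is lower in small clones in 5 of 6 mice, the Esr1 lines cross, and Ncoa2 varies least.

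Pgrmc1 (ENSMUSG00000006373, chromosome X, 35861859 to 35869732) varied more between libraries than between clone sizes. Large clones of mice 1 to 6 had 5.78, 4.12, 81.4, 9.50, 27.3 and 23.7 CPM of Pgrmc1. Small clones had 6.15, 106, 0.241, 2.98, 24.5 and 24.9 CPM. The large clones of mouse 3 and the small clones of mouse 2 were far above the rest. The difference between clone sizes in log2 was -0.12 (SE 1.11, 95% interval -2.49 to 2.25), and leaving out mouse 2 gave 1.21 and leaving out mouse 3 gave -1.22.

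Pgrmc2 (ENSMUSG00000049940, chromosome 3, 41020761 to 41037481) had 4.13, 16.7, 144, 238, 7.10 and 0 CPM in large clones of mice 1 to 6. Small clones had 4.92, 2.04, 0, 13.2, 67.0 and 0 CPM. Its highest values were in the large clones of mice 4 and 3, the libraries with 654 and 55.7 CPM of Hsd3b1. That gene was chosen after its values were seen. Star (described below) was also highest in these libraries, at 232 and 45.7 CPM. Cyp11a1 had 2520 CPM in the large clones of mouse 4, but 63.7 CPM in the large and 63.9 CPM in the small clones of mouse 3. A link with Pgrmc2 was not tested. The log2 fold change of Pgrmc2 was 2.23 (SE 1.66, 95% interval -1.31 to 5.77). Leaving out mouse 4 gave 1.18, leaving out mouse 3 gave 1.59 and leaving out mouse 5 gave 4.27. Pgrmc2 was at 0 in 3 of the 5 libraries with the higher chemoreceptor share and in 0 of the other 7. With that share as a covariate its log2 fold change was 4.20 (SE 1.25, unadjusted p 0.00513 and adjusted p 0.972 in edgeR). In edgeR its unadjusted p was 0.0320 with share and mouse block, 0.0439 without mouse 5 and 0.199 without covariate or block. It was under 0.05 in 3 of 17 alternatives. Per length, Pgrmc1 stood above Pgrmc2 in 7 of 12 libraries. Neither gene shared a 50-base stretch with another gene.

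Among the coactivators Ncoa2 varied least between libraries. It also had the highest mean level, at 82.2 CPM against 21.5 CPM for Ncoa1 and 14.7 CPM for Ncoa3. The part of level in this spread was not tested. Ncoa2 (ENSMUSG00000005886, chromosome 1, 13209329 to 13444307) had a lowest, median and highest level of 54.4, 74.6 and 162 CPM in large clones. In small clones these were 44.1, 61.9 and 165 CPM. Its highest library was 3.75 times its lowest, and its coefficient of variation over 12 libraries was 50.4%, beside a median of 97.8% over all tested genes. Its log2 fold change was 0.23 (SE 0.52, 95% interval -0.88 to 1.33), and -0.15 without mouse 3. Expected counts of Ncoa2 were fractional in all 12 libraries, and 0.293% of its 50-base stretches occurred in transcripts of 192 other genes.

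Ncoa1 (ENSMUSG00000020647, chromosome 12, 4297362 to 4527182) had 23.9, 1.37, 0.802, 138, 9.01 and 12.1 CPM in large clones of mice 1 to 6. Small clones had 4.61, 1.36, 10.9, 11.9, 20.3 and 23.7 CPM. The large clones of mouse 4, the library with the high Cyp11a1, held 53.5% of the summed CPM of Ncoa1. Its log2 fold change was 1.34 (SE 1.11, 95% interval -1.03 to 3.72) and turned to -0.38 without mouse 4. Ncoa3 (ENSMUSG00000027678, chromosome 2, 165834556 to 165915162) had a lowest, median and highest level of 0.687, 9.84 and 27.6 CPM in large clones. In small clones these were 2.32, 11.02 and 44.8 CPM. It was lower in large clones in 4 of 6 mice, with a log2 fold change of -0.68 (SE 0.98, 95% interval -2.77 to 1.41). Per length, Ncoa2 exceeded Ncoa1 in 11 of 12 libraries and Ncoa3 in 12 of 12.

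**Figure D3:**
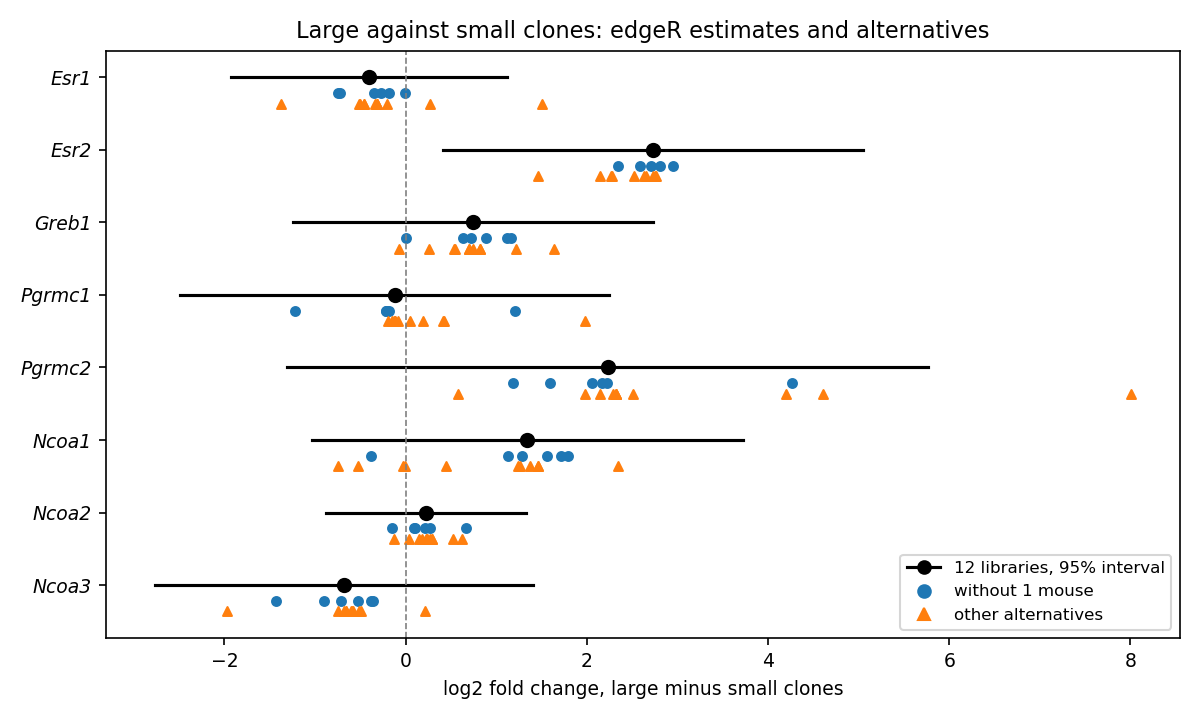
Log2 fold change, large minus small clones, of the 8 tested genes: black points and lines are the edgeR estimate and its 95% interval over 12 libraries, blue points the estimates without each mouse and orange triangles the other alternatives. Esr2 lies above 0 in every fit that tested it, at 2.73 over all libraries, and the interval of each other gene includes 0. The triangle of Pgrmc2 farthest to the right is from the 5 libraries with the higher chemoreceptor share, where both small-clone libraries were at 0, and is no bound.

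Targets and receptor were weakly related from library to library. Over the 12 libraries the Spearman rho of Esr1 was 0.36 with Greb1 and 0.43 with Pgr, and within the 7 lower-share libraries it was 0.64 and 0.47. Over all 36 pairs of the 9 genes rho ran from -0.58 (Ncoa1 with Ncoa2) to 0.48 (Pgrmc1 with Ncoa2), with a median of -0.04. These are descriptions, since the 12 libraries come from 6 mice and share depth and scaling. Of 10840 other tested genes, those most like Esr1 by rho over 12 libraries were Nr3c1 (0.84), the glucocorticoid receptor, Anxa3 (0.80), an annexin, and Stbd1 (0.80), a glycogen-binding protein. Those most like Pgr were Pgap2 (0.92), Rnf103 (0.91) and Nanos1 (0.89). Such values are the highest of many, and those for Pgr rest on low counts.

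The wider pathway was read from 7 lists of receptors, chaperones, cofactors, target genes and enzymes, which include the 9 genes themselves. Of the 107 listed genes 63 were tested, the 8 above among them, and edgeR passed 0. DESeq2 also passed 0 among those it gave an adjusted p. With an unadjusted p under 0.05 there were 5 genes (7.94%), beside 2.54% of all tested genes. With the mouse as a block there was 1 such gene, Ncoa7. There were 2 when mouse 1, 2 or 4 was left out, 3 without mouse 6, 6 without mouse 3 and 7 without mouse 5. In the fit without the block Esr2, Med1, Star and Cyp11a1 had positive and Ncoa7 a negative log2 fold change. The median over the 63 was -0.12, the value of Pgrmc1.

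Nuclear receptors had 3 of 8 genes tested, Esr1, Esr2 and Nr3c1, with 1 above and 2 below 0. The median log2 fold change was -0.40, that of Esr1 itself. Nr3c1 averaged 11.9 ± 8.63 CPM across large-clone libraries and 19.7 ± 11.3 CPM across small-clone libraries (SD, n = 6), a log2 difference of -0.72 (SE 0.80). Membrane receptors had 8 of 10 genes tested, with 4 on each side of 0 and a median of 0.03. Nenf, a relative of Pgrmc1, averaged 1126 ± 759 CPM across large-clone libraries and 1320.0 ± 567 CPM across small-clone libraries. Cyb5d2, another relative, had a log2 fold change of -0.21 (SE 0.51), and the membrane progestin receptor genes Paqr5 and Paqr7 had -1.27 (SE 1.29) and 0.35 (SE 0.79). Leaving out mouse 2 gave -0.0036 for Paqr5 and -0.72 for Paqr7, and leaving out mouse 6 gave -2.98 for Paqr5. The unadjusted p of each of these genes was above 0.05.

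All 10 receptor chaperone genes were tested, with 7 below and 3 above 0 and a median of -0.20. Hsp90ab1 and Hsp90aa1, which hold steroid receptors ready for hormone, had log2 fold changes of -0.17 (SE 0.99) and 0.34 (SE 0.92), and -1.02 and -0.33 with the mouse as a block. Ppid, a cochaperone, had -2.40 (SE 1.29), which was -0.80 without mouse 4 and -1.19 with the mouse as a block. Fkbp5, a cochaperone that is itself induced by progestins and glucocorticoids, averaged 68.8 ± 81.7 CPM across large-clone libraries and 29.7 ± 32.4 CPM across small-clone libraries, with 229.8 CPM in the large clones of mouse 4. This gave a log2 fold change of 1.21 (SE 0.84), and 0.16 without mouse 4.

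Cofactors had 18 of 25 genes tested, with 9 on each side of 0 and a median of -0.08. Med1, the Mediator subunit that contacts nuclear receptors, had 56.1, 132, 95.4, 15.1, 19.9 and 113 CPM in large clones of mice 1 to 6. Small clones had 14.1, 17.7, 46.5, 11.6, 19.4 and 34.5 CPM. Large clones had more of it in 6 of 6 mice, as for 1.16% of all tested genes, although the groups overlapped. Its log2 fold change was 1.58 (SE 0.68), at an unadjusted p of 0.0346 and an adjusted p of 0.9998 in edgeR. With the mouse as a block edgeR's unadjusted p for Med1 was 0.0674, and it was 0.0985, 0.166 and 0.0842 without mouse 1, 2 or 6. Ncoa7, an oestrogen receptor coactivator outside the p160 family, had 17.1, 2.52, 4.41, 0.432, 13.1 and 12.5 CPM in large clones. Small clones had 42.4, 50.7, 14.2, 22.2, 14.6 and 45.6 CPM. It was lower in large clones in 6 of 6 mice, as were 1.05% of all tested genes, and the groups overlapped. Its log2 fold change was -1.91 (SE 0.84), at an unadjusted p of 0.0377 and an adjusted p of 0.9998 in edgeR. The unadjusted p was 0.0404 with the mouse as a block and 0.0501 to 0.126 without mouse 1, 2, 3, 4 or 6. The corepressor gene Ncor1 and the RNA helicase gene Ddx5 had log2 fold changes of -0.22 (SE 0.44) and -0.23 (SE 0.91).

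Oestrogen-induced genes had 11 of 20 tested, with 7 below and 4 above 0 and a median of -0.40. Ovgp1, the oviductal glycoprotein gene, had a lowest, median and highest level of 345, 673 and 3529 CPM in large clones. In small clones these were 341, 2044 and 7614 CPM, and the log2 fold change was -1.12 (SE 0.83). Ovgp1 had 341 to 772 CPM in the 5 higher-share libraries and 573 to 7614 CPM in the 7 lower-share ones, and with the chemoreceptor share as a covariate its log2 fold change was -0.33, or -0.19 with the mouse block as well. The complement gene C3 and the lipocalin gene Lcn2 had log2 fold changes of -0.17 (SE 0.80) and -2.58 (SE 1.39). Progesterone-induced genes had 6 of 16 tested, with 5 above and 1 below 0 and a median of 0.71. That median was -0.0072 with the mouse as a block, 0.036 with the chemoreceptor share as a covariate, -0.41 within the 7 lower-share libraries and 0.25 without mouse 2. Zbtb16, a zinc finger repressor gene, had a log2 fold change of 1.80 (SE 1.24), Fst, the follistatin gene, 1.77 (SE 1.08), and the clock gene Per1 -1.64 (SE 1.11). Fst was highest in the large clones of mouse 2, at 61.1 CPM, and had 0.11 without mouse 2 and 0.46 with the mouse as a block. Zbtb16 had -0.015 with the chemoreceptor share as a covariate. Each of these genes had an unadjusted p above 0.05. They also respond to signals other than ovarian steroids.

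Steroid-metabolising enzymes had 8 of 22 genes tested, with 5 above and 3 below 0 and a median of 0.70, which was -0.044 with the mouse as a block and -0.30 without mouse 4. Cyp11a1 had a log2 fold change of 3.83 (SE 1.46) at an unadjusted p of 0.0195 in edgeR, 0.076 with the mouse as a block and -0.23 without mouse 4. Star, which brings cholesterol into mitochondria, had 232 CPM in the large clones of mouse 4 and 45.7 CPM in those of mouse 3, and 0 to 22.2 CPM elsewhere. Its log2 fold change was 3.85 (SE 1.48) at an unadjusted p of 0.0202 in edgeR, and 2.18 without mouse 4. With the mouse as a block edgeR's unadjusted p for Star was 0.0894. Hsd17b11, a hydroxysteroid dehydrogenase gene, averaged 144 ± 131 CPM across large-clone libraries and 199 ± 179 CPM across small-clone libraries (SD, n = 6).

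**Figure D4:**
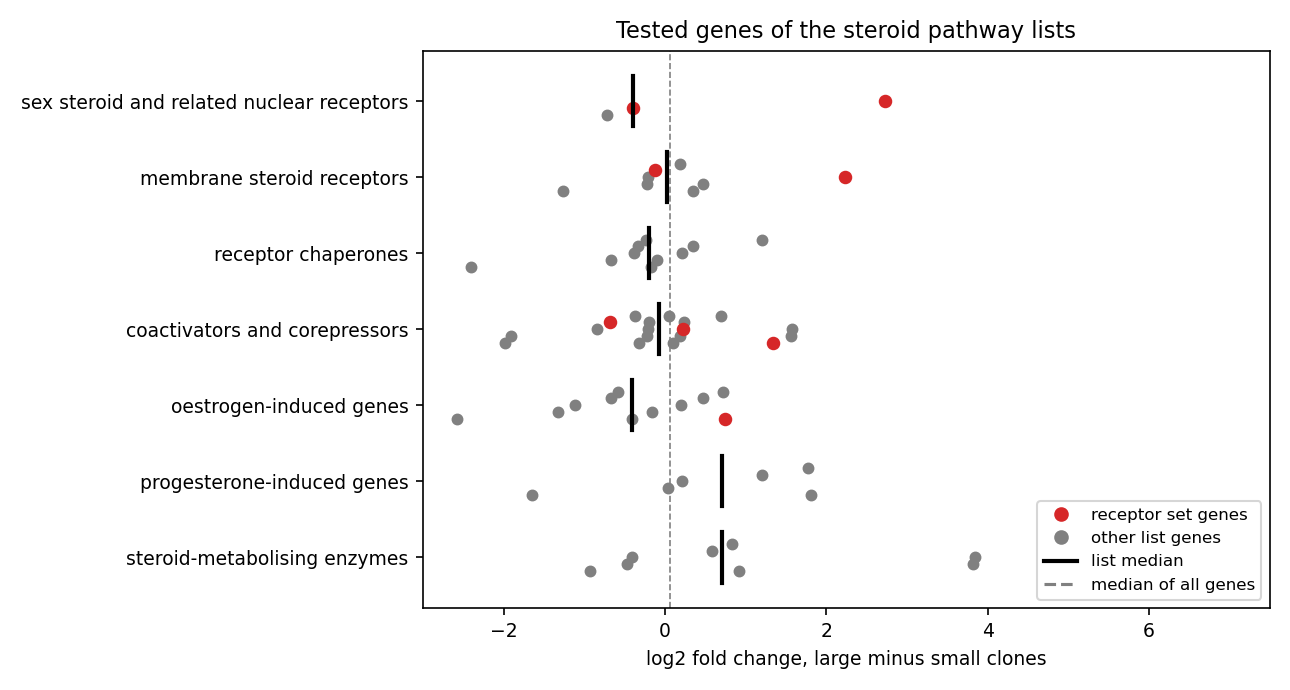
Log2 fold change, large minus small clones, of the tested genes in 7 steroid pathway lists: red points are genes of the receptor set, grey points the other list genes, black bars the list medians and the dashed line the median of all tested genes (0.059). Medians lie between -0.40 and 0.71 without a mouse block, and Star and Cyp11a1 are farthest to the right.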

How the data were processed

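The authors deposited expected counts per gene for 12 libraries (laser microdissection, poly(A) amplification and Nextera XT, per the labels' protocols). The submitters' processing notes name RSEM, Bowtie2 and GRCm38; versions are not given in the sources used here. Coordinates of genes are the table's: 2.97% of 35494 genes had the start they have in GENCODE M21 (GRCm38), so the build of these coordinates is not known here, and only the promoter windows are on GRCm38.p6. Expected counts were rounded and tested with edgeR 4.0.16 (R 4.3.3) using TMM, filterByExpr and Benjamini-Hochberg adjustment at 0.05, over 10848 genes, without a term for mouse. SE is the log2 fold change over the root of F. CPM uses TMM-scaled library sizes, marker sums and shares total counts; 3 counts equal 0.569 to 1.30 CPM, a limit for counting error only. Both libraries of a number come from 1 mouse, per the labels; their deviations correlated at -0.019, -0.0069, -0.38, 0.28, 0.52 and 0.64 for mice 1 to 6. The genes and lists were chosen with earlier results of these data known. Named list genes are the 2 with the highest mean CPM and the 2 with the lowest p in each list, and genes of like pattern the 3 with the highest rho. Alternatives were a mouse block, RLE, TMMwsp, other filters, DESeq2 1.42.0, limma 3.58.1 voom with quality weights, the chemoreceptor share as covariate or split at 5%, and omission of each mouse. The functions were checked on made-up and simulated input. For edgeR the check had to pass only at a spread far below that of these libraries, so it does not measure power here. Protein sequences were not used here, and 1 gene of the lists is not reported here.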

Additional observations from a re-analysis of the deposited data

Results flagged for a closer look

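Each of the 9 genes was searched in each clone size for a library that stands apart from the other 5, by the gap to its nearest neighbour as a share of the range. On the CPM scale 6 of 18 groups held such a library. On the log2(CPM + 1) scale 1 of 18 did, the small clones of mouse 3 for Pgr, at 0 counts. The limit flags about 1 in 20 groups of normally distributed values. CPM values had long upper tails, so that rate does not hold for them, and the share over all genes was not computed.

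Pgr had 18.4 CPM in the large clones of mouse 1, against 0 to 2.65 CPM in the other large clones. Pgrmc1 had 81.4 CPM in the large clones of mouse 3, against 4.12 to 27.3 CPM, and 106 CPM in mouse 2's small clones, where the rest had 0.241 to 24.9 CPM. Pgrmc2 had 67.0 CPM in mouse 5's small clones, where the rest had 0 to 13.2 CPM. Ncoa1 had 138 CPM in the large clones of mouse 4, against 0.802 to 23.9 CPM. Ncoa2 had 165 CPM in mouse 1's small clones, where the rest had 44.1 to 75.1 CPM.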

How the results depend on the processing

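Across 18 alternatives 0 of the 9 genes and 0 pathway list genes passed where they were tested. Pgr was tested only without a filter and within the 5 higher-share libraries. The filter of at least 10 counts in every library left 2 of the 9 genes to test. Over all genes, DESeq2 passed 5 and DESeq2 with the replicate block 42, and every other setting 0. Genes with an unadjusted p under 0.05 numbered 275, and 2880 without a filter, 122 with at least 10 counts in every library, 535 in DESeq2, 1134 in DESeq2 with the replicate block, 910 in limma voom, 524 with the chemoreceptor share as covariate, 486 with share and replicate block, 560 within the 7 lower-share libraries, 685 within the 5 higher-share libraries and 185 to 492 without 1 mouse (492 without mouse 3). The cause was not tested.

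Both libraries of a mouse were paired by the replicate block, which left 202 genes at an unadjusted p under 0.05 (35.1% higher in large clones, against 56.7% without it) and changed no call at the adjusted threshold among the named genes. With the block, list medians were -0.32 for nuclear receptors, -0.093 for membrane receptors, -0.33 for chaperones, -0.22 for cofactors, -0.76 for oestrogen-induced genes, -0.0072 for progesterone-induced genes and -0.044 for enzymes. With 1 mouse left out at a time, the oestrogen-induced median ran from -0.91 (without mouse 3) to -0.011 (without mouse 1). Outside that range it was -1.41 in limma voom and 0.022 with share and replicate block. List genes at an unadjusted p under 0.05 numbered 1 with the block and 2 with share and block, against 5. They numbered 6 in DESeq2, 7 in limma voom and 13 without a filter. The log2 fold change of Esr2 stayed above 0, at 1.46 to 2.95 over 15 alternatives, and that of Pgrmc2 at 0.57 to 8.005 over 17. The spread between libraries (a biological coefficient of variation of 115%) and low counts limit what can be seen.

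Other log2 fold changes turned sign, each at an adjusted p above 0.05. With the replicate block, values were 0.42 for Pgrmc1, -0.0028 for Ncoa1, -0.33 for Hsp90aa1 and -0.11 for Paqr7. In DESeq2 with the replicate block, values were 0.41 for Pgrmc1, -0.027 for Ncoa1, -0.34 for Hsp90aa1 and -0.097 for Paqr7. In voom, values were 0.27 for Esr1, 0.19 for Pgrmc1, -0.13 for Ncoa2, -1.25 for Hsp90aa1 and -0.087 for Paqr7. With the chemoreceptor share as covariate, values were 0.45 for Ddx5, 1.10 for Hsd17b11 and -0.015 for Zbtb16. With share and replicate block, values were 1.97 for Pgrmc1, -0.75 for Ncoa1, 0.74 for Ddx5, -0.11 for Fst, 0.98 for Hsd17b11 and -0.22 for Paqr7. Within the 7 lower-share libraries, values were -0.071 for Greb1, 0.047 for Pgrmc1, 0.21 for Ncoa3, 0.13 for C3, 0.020 for Ddx5, 0.44 for Hsp90ab1, -0.71 for Paqr7 and -1.81 for Zbtb16. Within the 5 higher-share libraries, values were 1.501 for Esr1, -0.53 for Ncoa1, -0.55 for Cyp11a1, 1.18 for Ddx5, -1.05 for Fkbp5, 4.24 for Hsd17b11, -1.62 for Hsp90aa1, 0.45 for Ovgp1, 2.02 for Paqr5 and 0.084 for Per1. Without 1 mouse at a time the values ran from -0.0016 to 1.16 for Greb1 (reversed without mouse 2), -1.22 to 1.21 for Pgrmc1 (reversed without mouse 2), -0.38 to 1.79 for Ncoa1 (reversed without mouse 4), -0.15 to 0.67 for Ncoa2 (reversed without mouse 3), -0.95 to 0.35 for C3 (reversed without mouse 1), -0.23 to 4.38 for Cyp11a1 (reversed without mouse 4), -0.22 to 0.56 for Hsp90aa1 (reversed without mouse 3), -0.64 to 0.014 for Nenf (reversed without mouse 1) and -0.72 to 1.01 for Paqr7 (reversed without mouse 2).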
